A study of Arabidopsis thaliana with 4 samples.

Results

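Wild-type Col-0 seedlings of Arabidopsis thaliana were held in the cold in 2 separate experiments, and the transcripts of the 2 wild-type samples are described and set against each other here. The members are genes, chosen by a rule on level alone. A gene entered when it had a probe set of its own, and when its mean log2 value over all 4 arrays was at least 6.46, the 40th percentile over probe sets other than controls. The rule took 7204 of 13355 genes, or 53.9%. The gene just inside the limit, AT1G33660, had a mean of 6.46, and the gene just outside it, AT2G31725, a mean of 6.45.

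One experiment held Col-0 beside sfr6-3 (WiscDsLox504A08) and the other held Col-0 beside sfr6-2 (SALK_048091). All 4 groups were 7-day-old whole seedlings raised on agar plates at 20 °C in cycles of 16 h of light and 8 h of dark, and all 4 were moved to 5 °C for 6 h in the light phase. About 50 mg of tissue gave the total RNA for 1 Affymetrix array per group, so each Col-0 value below is a single array with no replicate. SFR6 encodes a subunit of Mediator, which couples transcription factors to RNA polymerase II, and both mutant lines are disrupted in it. The hour of harvest is not in the labels. No unchilled seedlings were analysed here, so the values are levels in the cold and not responses to it.

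In the cold, Arabidopsis switches on CBF transcription factors, which in turn raise genes for dehydrins and other proteins that protect membranes and enzymes. Photosynthesis continues in chilled leaves, and its proteins are made partly from chloroplast genes and partly from nuclear ones. Plants deprived of sugar or light turn to another set of genes, which break down lipids and branched-chain amino acids and restrain growth. The circadian clock gates many of these responses.

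The values are log2 MAS5 signals, each array having been scaled to the same trimmed mean of 500. The median log2 value of the genes kept was 8.49 in Col-0 of the sfr6-3 experiment and 8.50 in Col-0 of the sfr6-2 experiment, and 8.58 and 8.53 in the mutants beside them. Root, shoot and pollen markers were checked. HPR, the leaf photorespiration enzyme that was the 1 measured member of the shoot list, lay between 13.82 and 14.26. The root markers lay at a summed linear signal of 11622 to 21640 over 6 genes, and both measured pollen genes, which whole seedlings should lack, stayed under the filter level in every array. Below, the measured members of a list are those matched by name to a gene kept. As 8730 probe sets had no gene name, a list covers only part of its function. The matches were 5 of 24 entries for the CBF targets, 4 of 39 for the clock and 13 of 72 for nuclear photosynthesis. Values of a gene are given below in a fixed order, namely Col-0 and sfr6-3 of the sfr6-3 experiment, then Col-0 and sfr6-2 of the sfr6-2 experiment. A Col-0 difference is always the sfr6-2 experiment minus the sfr6-3 experiment, and higher or lower refers to the sfr6-2 experiment.

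The brightest probe sets of cold Col-0 belonged to the photosynthetic machinery, to cold-protective proteins and to the cytosolic ribosome. Brightness also depends on how well a probe set binds, so the genes are grouped here and not ranked against one another. Of the 100 genes with the highest Col-0 signals, with means of 13.14 to 15.12, 24 were encoded in the chloroplast, 17 encoded cytosolic ribosomal proteins, 11 were nuclear photosynthesis genes and 5 were targets of the CBF factors. These signals differed little between the experiments. None of the 100 was at least 2-fold higher and 3 were at least 2-fold lower, with a median difference of 0.21.

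Among the 20 brightest genes, 7 were chloroplast genes of the light reactions. The ATP synthase subunit gene atpB read 15.03, 15.01, 15.21 and 15.08, and atpE of the same enzyme lay at 14.74 or above in all arrays, with a Col-0 difference of 0.21. The photosystem I genes psaB and psaJ read 14.45, 14.30, 14.41 and 14.59, and 14.33, 14.31, 14.54 and 14.46. Each of these 4 genes varied by less than 0.3 over the 4 arrays. The photosystem II gene psbM read 14.54, 13.75, 14.47 and 14.25, petB of the cytochrome b6f complex read 14.51, 14.32, 14.75 and 14.88, and ndhI of the chloroplast NDH complex read 14.60, 14.32, 14.67 and 14.71. For psbM the sfr6-3 array was the low one and the Col-0 arrays differed by -0.07.

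Nuclear genes of photosynthesis stood beside them. RCA, the activase of Rubisco, read 14.84, 14.74, 14.89 and 14.95, and PRK, the phosphoribulokinase of the Calvin cycle, read 14.20, 13.72, 14.43 and 13.97. The photosystem I gene PSAE-1 read 14.31, 14.04, 14.63 and 14.48, and LHCB4.1, a light-harvesting antenna gene, read 14.05, 13.96, 14.53 and 14.54. AT2G26500, a cytochrome b6f subunit gene, read 14.48, 14.03, 14.65 and 14.45. HPR read 14.26, 13.82, 14.20 and 13.88. In each of these genes the Col-0 arrays differed by less than 0.5 on the log2 scale, and the lowest array was that of sfr6-3.

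Cold-protective transcripts were among the brightest in Col-0 of both experiments. The dehydrin gene LTI30 read 14.80, 12.33, 15.21 and 13.48, COR47, another dehydrin gene, read 14.80, 14.13, 15.14 and 14.36, and COR15A, which encodes a chloroplast protein that shields membranes during freezing, read 13.99, 11.21, 14.51 and 12.37. Both Col-0 values lay above both mutant values in all 3 genes. Where a test is given, it is limma's test of the experiment over all 4 arrays with genotype as a second term, and it covers the allele together with the experiment. By that test LTI30 rose by 0.78 (SE 0.20, limma adjusted p = 0.0149) and COR15A by 0.84 (SE 0.20, limma adjusted p = 0.00889) from the sfr6-3 to the sfr6-2 experiment, and no other gene of the 20 passed. The Col-0 difference was 0.40 for LTI30, 0.35 for COR47 and 0.52 for COR15A. With COR15B at 0.23 and the lipocalin gene TIL at 0.48, all 5 measured CBF targets were above 0. Of the 5, 0 reached 2-fold, against 10.3% of all genes kept. Their median was 0.40, against 0.06 over all genes kept and 0.21 over the 100 brightest, which hold all 5. After quantile normalization the median of the CBF targets was 0.25.

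The 20 were completed by 4 genes of other functions. SAMDC, a polyamine synthesis gene, read 14.65, 13.90, 14.12 and 14.12, and its Col-0 difference of -0.52 was the lowest of the 20. GAPC2, a glycolytic enzyme often used as a reference, read 14.25, 14.54, 14.29 and 14.62. AT2G45180, of the lipid-transfer protein family, read 14.55, 14.22, 14.45 and 14.63, and the ribosomal protein gene AT5G20290 read 14.18, 14.05, 14.33 and 14.30. Within the 20 the Col-0 difference ranged from -0.52 to 0.52. The 3 genes of the brightest 100 that were at least 2-fold lower were AT3G15450, at 14.31, 13.64, 12.87 and 12.01, AT1G62510, at 14.15, 12.36, 12.82 and 9.85, and AT2G25450, at 13.99, 13.39, 12.48 and 12.15. They were singled out after their values were seen. AT3G15450 is a gene of darkness and sugar shortage, AT1G62510 belongs to the lipid-transfer protein family and AT2G25450 modifies glucosinolate side chains.

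**Figure D1:**
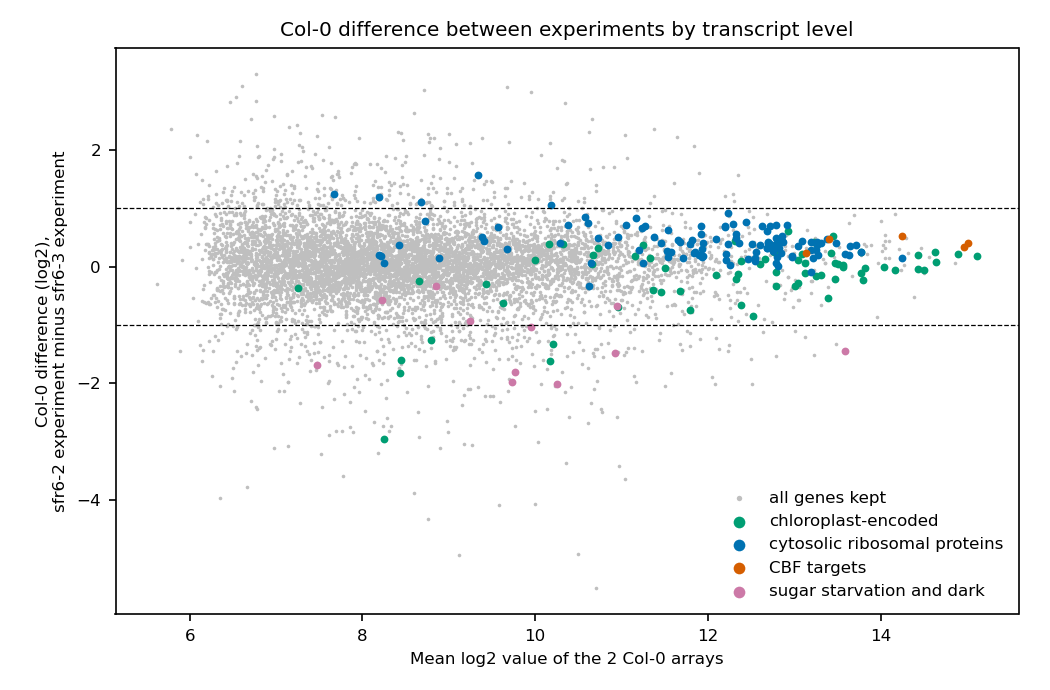
Col-0 difference between the experiments (log2, vertical axis) against the mean log2 value of the 2 Col-0 arrays (horizontal axis) for the 7204 genes kept, with 4 gene lists coloured and dashed lines at 2-fold. The chloroplast, ribosomal protein and CBF target genes at the bright end lie within 2-fold, while the sugar-starvation genes lie below 0.

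Across all genes kept, 339 (4.71%) were at least 2-fold higher in Col-0 of the sfr6-2 experiment and 404 (5.61%) at least 2-fold lower, or 10.3% either way. The median difference was 0.06 and its standard deviation over genes 0.67. With 1 array a side there is no test of a single Col-0 difference. The split differed with the level of the transcript. Of the 1801 dimmest genes 135 were higher and 96 lower, and of the 1801 brightest 51 were higher and 122 lower. Probe sets with several genes or no gene name, an alternative chosen after seeing the data, gave 291 higher and 362 lower of 6368.

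The mutant arrays give the only second look at the experiments, since the difference sfr6-2 minus sfr6-3 shares no array with the Col-0 difference. In the mutants the experiment and the allele cannot be told apart. Between the mutants 252 genes (3.5%) were at least 2-fold higher and 379 (5.26%) at least 2-fold lower. Of the 339 genes higher in Col-0, 100 (29.5%) were also at least 2-fold higher in the mutants, 3 were at least 2-fold lower and 284 had the same sign. Of the 404 genes lower in Col-0, 198 (49.0%) were at least 2-fold lower in the mutants, 3 were at least 2-fold higher and 374 had the same sign. The 100 genes made up 39.7% of those higher in the mutants and the 198 made up 52.2% of those lower.

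The sizes differed as well. The genes higher in Col-0 had a median difference of 1.33 in Col-0 and 0.64 in the mutants, and those lower had medians of -1.41 and -0.98. The limma fit called 311 genes (4.32%) higher and 461 (6.4%) lower after Benjamini-Hochberg adjustment. It called 194 of the 339 and 305 of the 404 in the same direction. The fit has 1 residual degree of freedom, the gap between the Col-0 and the mutant difference, and rests on spread pooled over genes. It includes the mutant arrays, so its calls cover the experiment together with the allele.

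**Figure D2:**
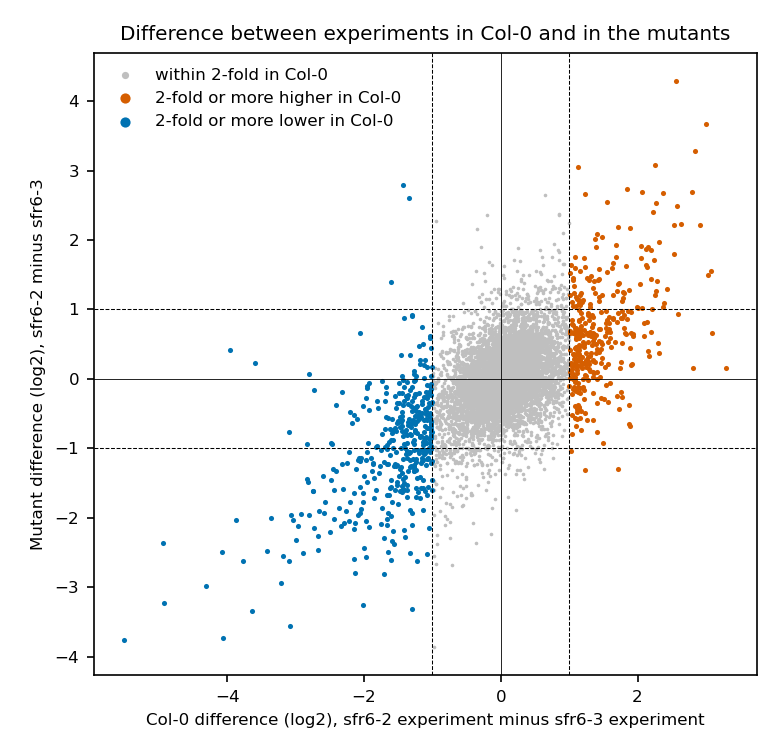
Difference between the experiments in the mutants (sfr6-2 minus sfr6-3, log2, vertical axis) against that in Col-0 (log2, horizontal axis) for the 7204 genes kept, with dashed lines at 2-fold. Most coloured genes have the same sign on both axes, with 198 of 404 in the lower left and 100 of 339 in the upper right past 2-fold in both.

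Some differences came from a single array. Col-0 of the sfr6-3 experiment stood at least 2-fold above each of the other arrays for 84 genes (1.17%) and at least 2-fold below each for 78 (1.08%). For Col-0 of the sfr6-2 experiment the counts were 49 (0.68%) and 25 (0.347%). The mutant arrays stood apart above for 20 genes each and below for 51 in sfr6-3 and 64 in sfr6-2. Of the 2 wild-type arrays, that of the sfr6-3 experiment thus stood alone for more genes in either direction, and it was the lowest of the 4 for 37% of all genes kept.

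The 12 genes lowest in the sfr6-2 experiment, among those with both Col-0 values at or above the filter level, were 8.59-fold to 45.6-fold lower in Col-0. AT2G20670, of the DUF506 family of plant proteins of unknown function, read 13.47, 12.48, 7.95 and 8.72, a Col-0 difference of -5.51. AT1G25400 read 11.58, 9.56, 6.65 and 7.19, and AT5G19120, of the aspartyl protease family, read 12.95, 11.45, 8.03 and 8.23. In each of these genes both lines of the sfr6-3 experiment were bright and both lines of the sfr6-2 experiment dim, with no overlap. The DUF506 genes AT3G07350 at 12.03, 10.42, 7.97 and 6.68 and AT2G38820 at 10.53, 9.42, 6.66 and 7.39 followed the same order. Their Col-0 differences were -4.06 and -3.87.

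Regulatory genes were among the 12. AT1G23390, a Kelch-repeat F-box gene whose product targets chalcone synthase for breakdown, read 12.86, 12.24, 9.23 and 8.90. AT1G26800, a RING-type ubiquitin ligase gene, read 9.78 in Col-0 of the sfr6-3 experiment and 6.59 and 6.05 in the lines of the other. AT3G26510, which encodes a PB1-domain protein, read 10.91 and 10.84 in the lines of the sfr6-3 experiment, with a Col-0 difference of -4.32 and a mutant difference of -2.99. For AT3G26510 the sfr6-3 array matched its Col-0 within 0.1. The remaining genes were AT1G54740 at 11.63, 9.55, 7.55 and 7.06, AT1G68440 at 12.67, 11.74, 9.26 and 9.27, AT2G32150, a HAD-type hydrolase gene, at 12.04, 10.75, 8.68 and 8.75, and AT2G24550 at 10.45, 10.03, 7.35 and 7.41. Both lines of the sfr6-3 experiment lay above both of the other experiment in 12 of 12, against 21.6% of all genes kept. Part of this order was set by the choice of genes on the Col-0 difference. In the mutants all 12 were at least 2-fold lower, down to -3.76, against 5.26% of all genes kept. All 12 passed the limma test, which includes the Col-0 arrays that chose them. The largest limma difference of the 12 was that of AT2G20670, which fell by 4.64 (SE 0.29, limma adjusted p = 6.47e-09).

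The 12 genes highest in the sfr6-2 experiment were 4.83-fold to 8.45-fold higher in Col-0. GI, which acts in the circadian clock and in flowering and peaks towards evening, read 8.45, 8.29, 11.45 and 11.96. Its Col-0 difference was 3.00, that of the mutants was 3.67, and the limma difference was 3.33 (SE 0.23, limma adjusted p = 2.14e-08). The lines of each experiment agreed within 0.6 in GI. The other measured clock genes were much closer between the Col-0 arrays. COR27 read 11.29, 9.80, 11.43 and 11.09, AT4G33980 read 10.57, 9.15, 10.74 and 10.34, and TIC read 10.76, 10.76, 11.04 and 11.16. COR27 and AT4G33980 were low in the sfr6-3 array alone, and neither passed limma for the experiment.

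Enzymes of the wall and of protein processing were among the 12. AT1G32860, of the glycosyl hydrolase family, read 8.14, 7.28, 11.21 and 8.84, and GH9C2, an endoglucanase gene, read 9.39, 9.92, 11.92 and 11.72. AT2G43590, of the chitinase family, read 7.29, 9.09, 9.92 and 11.32, and BETA-VPE, a vacuolar processing protease gene, read 7.86, 7.96, 10.13 and 9.22. In AT1G32860 most of the difference was in Col-0, at 3.08 against 1.56 in the mutants. AT1G11960, of the OSCA ion channel family, read 7.20, 7.20, 10.23 and 8.70, and AT2G44940, of the ERF/DREB transcription factor family, read 7.62, 7.14, 9.90 and 9.67. The 2 GDSL lipase genes AT2G23540, at 7.26, 8.94, 9.57 and 9.32, and AT1G74460, at 7.30, 8.90, 9.59 and 9.42, were low in Col-0 of the sfr6-3 experiment alone. They were also the only genes of the 12 that were not at least 2-fold higher in the mutants. The others were AT4G18280 at 8.94, 6.72, 11.74 and 9.41, AT5G47060 at 10.20, 9.11, 12.56 and 11.79, and AT1G53035 at 9.47, 8.29, 11.79 and 10.26. Both lines of the sfr6-2 experiment lay above both of the sfr6-3 experiment in 12 of 12, against 23.5% of all genes kept. Here too the choice on the Col-0 difference set part of the order. All 12 passed limma, which again includes the Col-0 arrays that chose them.

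**Figure D3:**
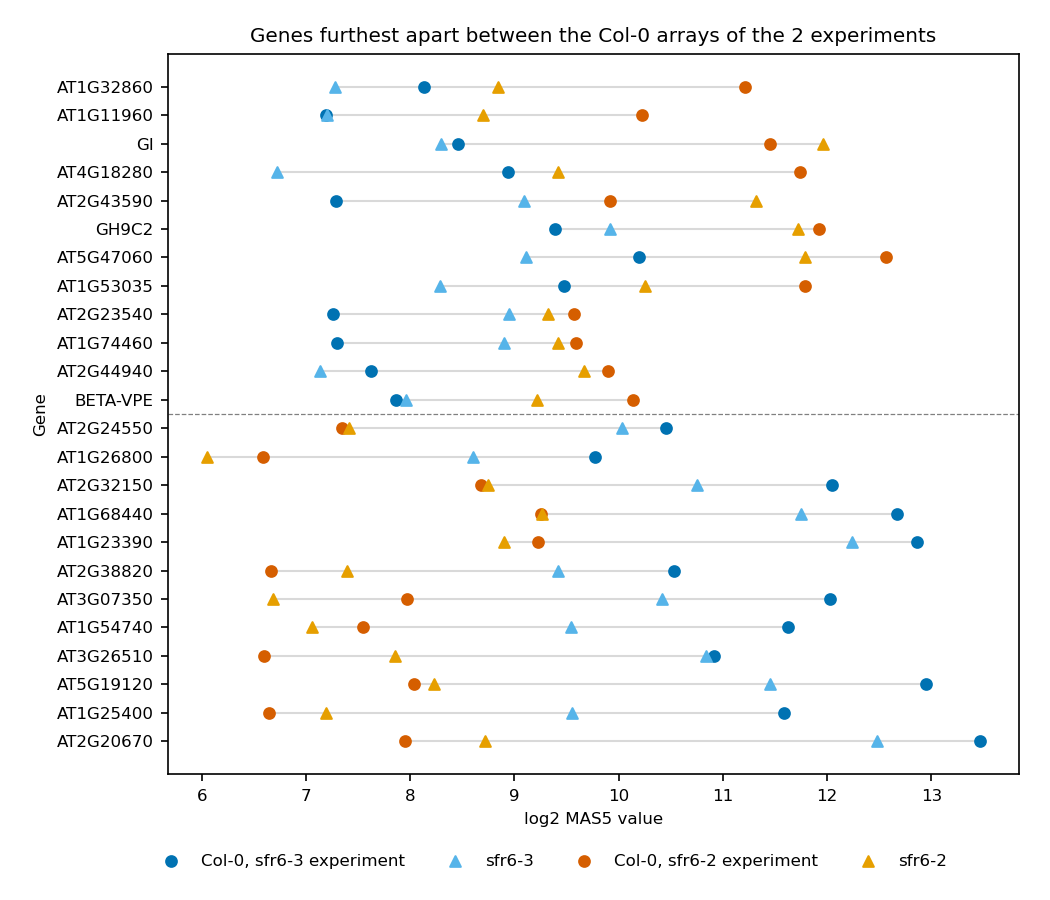
log2 MAS5 values in all 4 arrays (horizontal axis) for the 12 genes highest (above the dashed line) and the 12 lowest (below it) by the Col-0 difference. Circles are Col-0, triangles are mutants, blue is the sfr6-3 experiment and orange the sfr6-2 experiment, and the colours separate in all 24 genes.

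Where 1 of the Col-0 values lay under the filter level, the fold is a lower bound, taken with that value raised to the level. BCAT4, which starts the chain elongation of methionine-derived glucosinolates, read 9.57, 7.72, 5.98 and 7.95 and was at least 8.67-fold lower, while its mutant difference was 0.22. AT1G31550, of the GDSL lipase family, read 9.17, 7.14, 6.36 and 7.21 and was at least 6.54-fold lower. For both genes the mutants lay between the Col-0 arrays, and AT1G31550 did not pass limma (adjusted p = 0.0518). AT4G10910 at 9.12, 8.51, 5.92 and 5.57, AT5G48570, the heat-responsive immunophilin gene ROF2, at 9.09, 8.86, 6.28 and 6.91, and AT3G24460 at 9.05, 8.63, 6.17 and 6.13 were low in both lines of the sfr6-2 experiment. At the other end AT1G20070 read 6.40, 5.06, 8.96 and 9.35 and was at least 5.68-fold higher. AT4G17280 at 6.24, 8.05, 8.83 and 8.99, scpl28, a serine carboxypeptidase-like gene, at 6.36, 6.86, 8.59 and 8.58, AT4G35985 at 6.02, 5.77, 8.45 and 7.07, and AT1G49450 at 6.13, 6.92, 8.42 and 8.34 were also higher. In AT4G17280 the low array was that of Col-0 in the sfr6-3 experiment. AT4G10910 and AT3G24460 lay under the filter level in both lines of the sfr6-2 experiment. For AT1G20070 and AT4G35985 it was both lines of the sfr6-3 experiment. These genes were kept only through the experiment where they are high.

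Genes of sugar starvation and darkness were lower in the sfr6-2 experiment. This list was written after the differences had been seen, so it is no independent evidence of its direction. Of its 11 measured members all 11 were below 0 in Col-0, with a median of -1.44. In 7 the value was at least 2-fold lower, against 5.61% of all genes kept, and in 0 at least 2-fold higher. AT3G15450 has its values above, and AT4G27450 of the same family read 11.25, 10.05, 9.25 and 8.66. AKINBETA1, a subunit of the energy-sensing kinase SnRK1, read 10.72, 9.48, 8.74 and 8.30, and SDP1, the lipase that begins the breakdown of seed oil, read 10.67, 10.04, 8.86 and 9.07. In these 4 genes both lines of the sfr6-3 experiment lay above both of the sfr6-2 experiment, and all 4 passed limma (adjusted p from 1.54e-05 to 0.000573).

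Genes of branched-chain amino acid breakdown belonged to the same list. IVD, isovaleryl-CoA dehydrogenase, read 11.67, 9.79, 10.18 and 9.59. MCCA and MCCB, the subunits of methylcrotonyl-CoA carboxylase, read 10.47, 8.29, 9.43 and 8.88, and 9.71, 9.03, 8.78 and 9.83. In IVD and MCCA wild type of the sfr6-3 experiment was the highest array, and the mutant differences were -0.20 and 0.59. ALDH6B2 at -0.67, ETFQO at -0.57 and AT4G33150 at -0.34 did not reach 2-fold in Col-0, and ATL8, a RING ligase gene, stood at -1.68. Over the list the median mutant difference was -0.12 and limma called 5 of 11 lower, against 6.4% of all genes kept. Col-0 of the sfr6-3 experiment was the highest of the 4 arrays in 10 of 11 members, against 21.2% of all genes kept.

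Of the 47 entries of the sulfur and glucosinolate list only 4 were matched to a gene kept. All 4 were at least 2-fold lower in Col-0 of the sfr6-2 experiment, against 5.61% of all genes kept. Besides BCAT4, APS3, an ATP sulfurylase gene, read 9.29, 8.84, 7.92 and 8.79, GSTU20, a glutathione transferase gene tied to glucosinolate synthesis, read 10.42, 10.53, 9.16 and 10.51, and UGT74B1, which glucosylates glucosinolate precursors, read 9.41, 9.09, 8.17 and 8.87. Col-0 of the sfr6-2 experiment was the lowest array in 4 of 4, against 23% of all genes kept. The mutant differences of the 4 ran from -0.22 to 0.22. AT2G25450, a glucosinolate gene outside the list with its values above, had a mutant difference of -1.24 and was lowest in sfr6-2. In the list BCAT4 alone passed limma (adjusted p = 0.041). The difference between the Col-0 and the mutant differences was not tested.

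**Figure D4:**
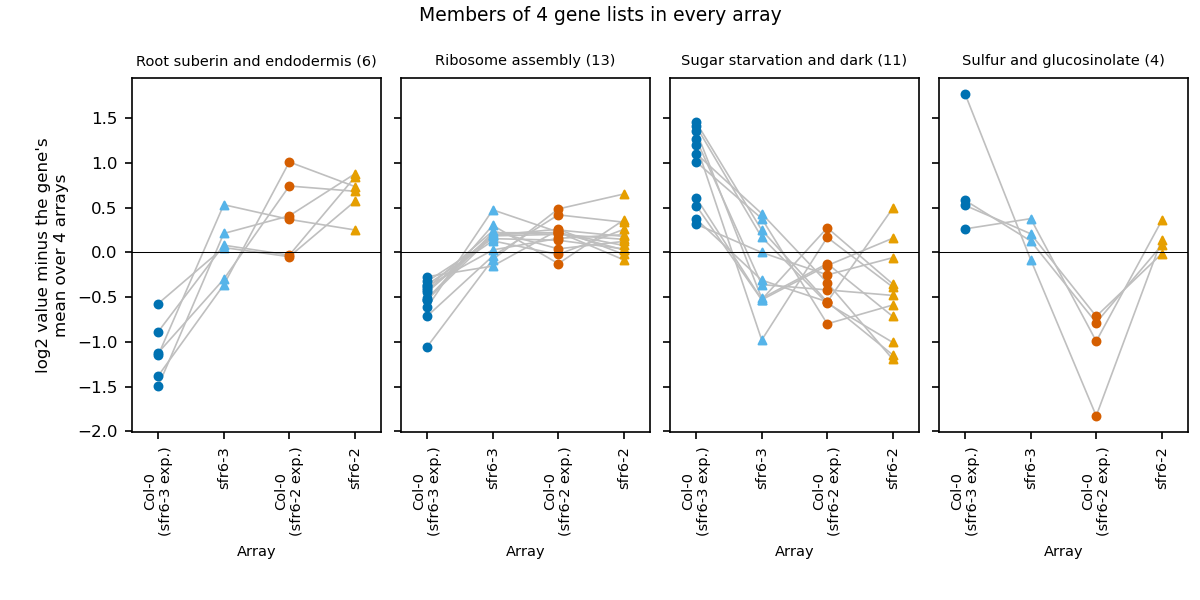
log2 value of each kept member minus that gene's own mean over the 4 arrays (vertical axis), in every array, for 4 gene lists with the number of genes in brackets. Grey lines join 1 gene. Col-0 of the sfr6-3 experiment is the lowest array in 6 of 6 genes of the first panel and 13 of 13 of the second. It is the highest in 10 of 11 of the third. There both lines of that experiment lie above both others in 6 of 11, against 21.6% of all genes kept. In the last panel Col-0 of the sfr6-2 experiment is the lowest array in 4 of 4.

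Most measured genes of the suberin layer and root hairs were higher in Col-0 of the sfr6-2 experiment, while the general root markers were mixed. The lists of root hair and suberin genes were written after the differences had been seen, so their direction is no independent evidence. Of 6 genes of suberin and the endodermis, the inner root barrier, 4 were at least 2-fold higher and 0 lower, with a median of 1.69. The shares over all genes kept were 4.71% and 5.61%. AT1G68850, a peroxidase gene, read 5.96, 6.98, 8.35 and 8.07, AT3G22620, of the lipid-transfer protein family, read 10.13, 10.95, 11.99 and 11.94, and AT5G37690, a GDSL lipase gene, read 5.85, 7.55, 7.75 and 8.22. The dirigent-family gene AT2G39430 read 6.02, 7.70, 7.53 and 7.41. Col-0 of the sfr6-3 experiment was the lowest of the 4 arrays in 6 of 6, against 37% of all genes kept. In 4 of the 6 a Col-0 value lay under the filter level. limma called 4 higher, against 4.32% of all genes kept. With values raised to the filter level the median was 1.18.

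The 4 measured root hair genes had the same direction in Col-0. The expansin genes EXPA7, at 6.33, 6.37, 7.92 and 7.17, and EXPA18, at 6.05, 5.91, 7.70 and 7.11, and the root peroxidase genes AT5G17820, at 9.32, 9.88, 10.54 and 10.34, and AT4G26010, at 7.76, 7.74, 9.67 and 7.96, were all at least 2-fold higher. Of all genes kept 4.71% were at least 2-fold higher. Col-0 of the sfr6-2 experiment was the highest array in all 4 root hair genes, against 18.4% of all genes kept. EXPA7 and EXPA18 lay under the filter level in both lines of the sfr6-3 experiment and so were kept only through the other experiment, where they are high. Among the general root markers PYK10, an abundant beta-glucosidase of roots and hypocotyls, read 13.88, 13.40, 14.32 and 14.25, and TMT1, a vacuolar sugar transporter gene, read 10.08, 9.33, 9.54 and 9.72. The summed linear signal of the root markers was 16388 and 11622 in the sfr6-3 experiment and 21640 and 20699 in the sfr6-2 experiment, and the number of its 6 members at or above the filter level was 2, 2, 4 and 4. PYK10 made up 92.3% to 94.4% of each sum, and without it the sums were 1265, 821.5, 1232 and 1161. More root in a sample and more RNA per root cell cannot be told apart in whole seedlings, and the part of root share in these differences was not tested.

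Enzymes that loosen or remodel the wall went both ways. Of 17 expansin and xyloglucan endotransglucosylase genes 7 were at least 2-fold higher and 2 lower as measured, with a median of 0.61. Over all genes kept the shares were 4.71% and 5.61%. Of the 7 higher ones 5 had a Col-0 value under the filter level, and with such values raised to it 5 of the 17 were at least 2-fold higher, without EXPB1 and EXPA16. XTH19 read 7.45, 9.51, 9.32 and 9.13, with Col-0 of the sfr6-3 experiment alone low, and EXPA16 read 6.01, 5.12, 7.24 and 7.78. EXPA16, like EXPA7 and EXPA18, was kept only through the sfr6-2 experiment, where it is high. The 2 lower genes were brighter and lower in both lines. EXGT-A3 read 13.51, 13.29, 11.50 and 11.52 and fell by 1.90 (SE 0.19, limma adjusted p = 2.22e-06), and XTH16 read 9.46, 10.39, 8.16 and 8.28. With the filter at the 60th percentile 11 genes were left and the median was 0.28.

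Ribosomal transcripts were shifted a little, and nearly all in the same direction. Of 114 measured genes of cytosolic ribosomal proteins 112 were above 0 in Col-0, with a median of 0.39. Of these genes 5 were at least 2-fold higher and 0 lower, against 4.71% and 5.61% of all genes kept. The 5 were AT3G57490 at 8.55, 9.77, 10.12 and 9.99, AT5G59240 at 7.04, 8.03, 8.29 and 8.40, AT2G32220 at 7.60, 9.11, 8.79 and 9.27, AT4G34555 at 8.13, 8.97, 9.24 and 9.14, and AT1G80750 at 9.65, 10.56, 10.70 and 10.65. In each of the 5 it was Col-0 of the sfr6-3 experiment that stood low. That array was the lowest of the 4 in 94 of 114, against 37% of all genes kept, and the median mutant difference was 0.16. limma called 2 of 114 higher, against 4.32% of all genes kept.

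Ribosome assembly factors had a larger median. Of 13 measured genes 13 were above 0. Past 2-fold, 2 were higher and 0 lower, against 4.71% and 5.61% of all genes kept. The median was 0.67 in Col-0 and -0.04 in the mutants. AT3G15460, a Brix-domain factor gene, read 7.69, 8.66, 9.22 and 9.39, AT3G22660 read 8.59, 9.26, 9.72 and 9.64, and AT5G15550 read 8.90, 9.99, 9.75 and 9.44. Col-0 of the sfr6-3 experiment was the lowest array in 13 of 13, against 37% of all genes kept. Both ribosome lists were written after the differences had been seen. The call of AT3G22660 lay close to the threshold (limma adjusted p = 0.0496).

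Photosynthesis genes were close between the wild types. Of 13 nuclear genes 11 were above 0, 0 reached 2-fold in Col-0 and the median was 0.24, or 0.14 after quantile and 0.10 after cyclic loess normalization. LHCB4.2, an antenna gene, read 13.62, 12.64, 14.40 and 14.13 and alone passed limma, at 1.13 (SE 0.20, limma adjusted p = 0.000753). PSAN, of photosystem I, stood at 0.36 and LHCB4.1 at 0.48. The sfr6-3 array was the lowest of the 4 in 12 of 13 genes, against 19.5% of all genes kept, and the median mutant difference was 0.42.

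Of 68 chloroplast-encoded genes 56 (82.4%) lay within 1.5-fold, against 73.9% of all genes kept. None was at least 2-fold higher and 6 (8.82%) were at least 2-fold lower, against 5.61% of all genes kept, with a median of -0.03. The 6 were rps14 of the ribosome at 9.72 and 6.76 in the 2 Col-0 arrays, petD at 9.35, 8.44, 7.52 and 7.46 and petG at 9.25, 8.73, 7.65 and 7.27 of the cytochrome b6f complex, ndhG of the NDH complex at 10.98, 9.83, 9.37 and 9.11, ycf3, a photosystem I assembly factor, at 10.87, 10.03, 9.55 and 10.38, and rpoB of the plastid RNA polymerase at 9.42, 8.88, 8.17 and 8.67. None of the 6 was among the 100 brightest. The 24 chloroplast genes that were among them ranged from -0.53 for atpH to 0.52 for matK. Subunits of the same complex parted, since petB stood at 0.24 beside petD at -1.83 and petG at -1.60. By limma rps14 fell by 2.54 (SE 0.28, adjusted p = 3.96e-06), and petD, petG, ndhG, psbI and psbK were also called lower and matK and rps16 higher. The test did not call ycf3 (limma adjusted p = 0.347) or rpoB (limma adjusted p = 0.084).

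Of 5 mitochondrion-encoded genes ccb452, a cytochrome c assembly gene, was at least 2-fold lower, against 5.61% of all genes kept. It read 7.86, 7.84, 6.49 and 6.92. The others were nad4 at -0.89, cox1 at -0.37, ccb382 at 0.05 and orfX at 0.21. The 7 reference genes ran from -0.32 to 0.37 with a median of 0.03, and 0 reached 2-fold.

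Of the heat shock genes, a list also written after the differences had been seen, 2 of 7 were at least 2-fold lower, against 5.61% of all genes kept. Hop3, a co-chaperone gene, read 8.15, 8.61, 6.02 and 5.81, and Fes1A, whose product binds Hsp70, read 10.48, 10.64, 8.90 and 8.45. Both were at least 2-fold lower in Col-0 and in the mutants. Hop3 lay under the filter level in both lines of the sfr6-2 experiment. It was thus kept only through the sfr6-3 experiment, where it is high. With values raised to the level, the Col-0 difference of Hop3 was -1.70. Hsp70-2 read 9.25, 10.35, 8.62 and 8.67, the Hsp70 gene AT3G09440 read 12.99, 13.50, 12.68 and 12.39, and AT3G53990, a universal stress protein gene, was higher, with a Col-0 difference of 0.95. Of the 7 measured genes limma called 4 lower and 1 higher, against 6.4% and 4.32% of all genes kept. The median Col-0 difference was -0.63. The filter at the 60th percentile left 5 genes with a median of -0.31.

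Seed and late embryogenesis genes diverged from one another. M17 read 8.33, 6.78, 4.38 and 7.19 and LEA4-5 read 8.23, 6.31, 9.95 and 8.50, so the first was low and the second high in the sfr6-2 experiment's Col-0. LEA4-5 passed limma as higher, at 1.95 (SE 0.25, limma adjusted p = 2.55e-05), and M17 did not pass. AT2G46140, another late embryogenesis gene, read 6.92, 7.88, 8.40 and 8.19. AtLEA4-1 stood at 0.25 and AT1G54410, a dehydrin gene, at 0.21. In the seed list AIM1 of beta-oxidation stood at -0.42 and ICL of the glyoxylate cycle at -0.35.

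Detoxifying and glycosylating enzymes went in both directions. Of 7 glutathione transferase genes 2 were at least 2-fold higher and 2 lower. GSTU25 read 8.28, 9.14, 10.48 and 10.58 and GSTU22 read 8.39, 9.42, 9.66 and 10.34, while GSTU16 read 10.47, 9.75, 9.27 and 9.22. Their median was -0.11. Of 24 UDP-glycosyltransferase genes matched by name 4 were at least 2-fold lower, against 5.61% of all genes kept, and 0 higher. Their median was -0.25. AT2G22590, of the same family but outside this list, was at least 2-fold higher, at 1.71. UGT73B1 read 10.27, 9.39, 8.07 and 8.91, UGT73C1 read 8.96, 8.98, 7.11 and 7.26, and UGT71C2 read 7.89, 7.09, 6.43 and 6.47. UGT73C1 separated the experiments in both lines, whereas UGT73B1 differed by -2.20 in Col-0 and -0.48 in the mutants.

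Of 7 CYP71B cytochrome P450 genes CYP71B29 was at least 2-fold lower, at 7.92, 7.73, 6.89 and 8.19, and all 7 were below 0, with a median of -0.57. Among 8 beta-glucosidase genes BGLU25, at 8.75, 7.88, 10.21 and 8.85, and BGLU15, at 7.07, 7.53, 8.23 and 7.81, were at least 2-fold higher, and the median was -0.10. BGLU46 stood at -0.93 and BGLU19 at 0.61. Of 5 class III peroxidase genes matched by name Prx37 was at least 2-fold higher, at 6.54, 7.71, 7.81 and 8.02. Beside it stood AT5G66390 at 0.85, AT5G64120 at 0.35 and PRXR1 at 0.18. The peroxidase genes AT1G68850, AT5G17820 and AT4G26010, given above, lay outside this list and were at least 2-fold higher. In the CYP71B genes limma called CYP71B28 alone, as lower, and CYP71B29 stood at 0.45 in the mutants.

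The auxin and jasmonate lists held no difference of 2-fold, and the WRKY and bHLH lists held 1 each. Over all genes kept 4.71% were at least 2-fold higher and 5.61% lower. Of 5 auxin-response genes 0 reached it, with GH3.3 at -0.85, WES1 at -0.51, HAT2 at -0.49 and LBD16 at 0.12. Of 5 jasmonate genes 0 reached it, with OPCL1, a jasmonate synthesis gene, at -0.88, MYC3 at -0.56, MYC4 at 0.28, THI2.2 at 0.24 and PDF1.2 at 0.02. WRKY22 was at least 2-fold lower of 5 WRKY genes, at 7.50, 7.86, 6.13 and 6.17, beside WRKY47 at -0.69 and WRKY6 at 0.62. It lay under the filter level in both lines of the sfr6-2 experiment, so WRKY22 was kept only through the other. With values raised to the level, the Col-0 difference of WRKY22 was -1.05. Of 5 bHLH genes, bHLH121, which acts in iron supply, was at least 2-fold lower, at 9.66, 9.50, 8.57 and 8.58. The iron-deficiency genes themselves stood at 0.54 for PYE, 0.45 for AT1G47400 and 0.30 for AT3G13610.

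STZ, the 1 measured early cold transcription factor, read 10.37, 8.75, 9.87 and 7.54, and UGT76B1, of salicylate defence, stood at 0.01. Among the defence proteins OSM34 stood at 0.74 and ChiC, a chitinase, at 0.85 in Col-0, and both passed limma as higher with mutant differences of 1.76 and 1.83. Flavonoid genes stayed within 2-fold, with DFR at -0.60, CHIL at -0.34, UGT78D1 at -0.27 and UGT78D2 at 0.41. The same held for the histone genes HON4 at -0.98, HIS1-3 at -0.11 and HTB2 at 0.23, and for PDC2 of fermentation at -0.07.

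Among structural genes TUB1, a tubulin of roots and young tissue, was at least 2-fold higher at 7.54, 8.49, 8.90 and 9.14, while the other 7 tubulin and actin genes ran from -0.55 for ACT11 to 0.40 for TUA6. The subtilase gene SBT4.12 at 8.15, 9.23, 9.49 and 10.12 and the extensin-type gene HRGP1 at 7.38, 7.80, 8.50 and 7.75 were at least 2-fold higher as well. Of all genes kept 4.71% were at least 2-fold higher. In TUB1, SBT4.12 and HRGP1 Col-0 of the sfr6-3 experiment was the lowest array, against 37% of all genes kept. The 9 thioredoxin and glutaredoxin genes had a median of 0.09 and the 5 pigment synthesis genes one of 0.13, with 0 past 2-fold in either group. AT5G47390, a MYB-type gene, stood at -0.97 and MYBC1 at 0.73. The pectin methylesterase genes ATPMEPCRB and PMEPCRF stood at -0.62 and -0.09.

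**Figure D5:**
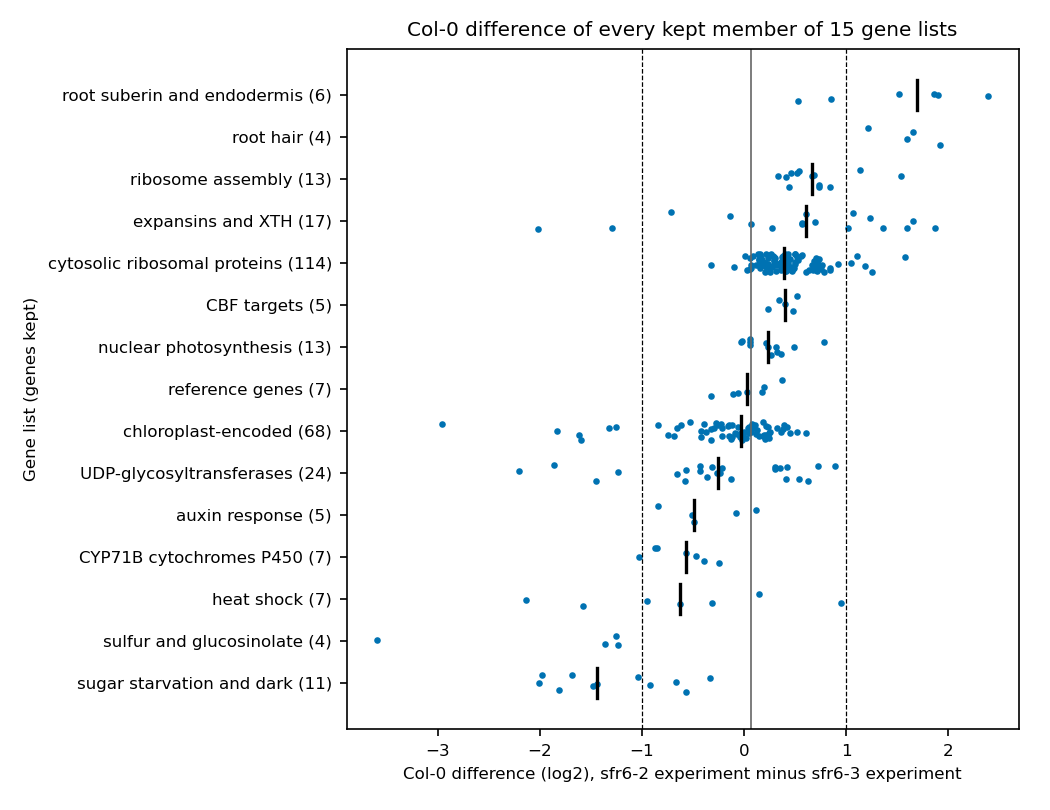
Col-0 difference (log2, horizontal axis) of every kept member of 15 gene lists, with the number of genes in brackets. Points are genes, thick black bars the list medians where a list has 5 or more genes, the grey line the median of all genes kept (0.06) and dashed lines 2-fold, with root lists on the right and sugar-starvation genes on the left.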

How the data were processed

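Per the submitters' processing notes, the authors made the deposited log2 expression values with MAS5 from affy 1.36.1. The trimmed mean of each array was 500 on the linear scale, with 2% cut at each end. Of 22810 probe sets 64 controls were left out, and 13513 had 1 gene in the platform annotation. Another 503 had several genes, and 8730 had no gene name. Names of 13436 were updated through the TAIR10.1 gene table and 77 were kept. A gene with several probe sets kept that of the highest mean. Differences are of log2 values, with 2-fold as threshold and no test for a pair of arrays. The experiment term was fitted over 4 arrays with limma 3.58.1 in R 4.3.3, with a variance trend, 17.5 prior degrees of freedom and Benjamini-Hochberg adjustment at 0.05, and was tested on simulated data. The spread behind a p-value is how far the Col-0 and the mutant differences disagree, pooled over genes. No group has a replicate array, so it does not measure variation between samples of 1 group. Nothing says that the arrays came from separate cultures.

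The members and the gene lists were chosen with earlier results of these data known, and 6 lists were added to the first 60 after the differences had been seen. List names were matched to gene symbols, locus tags and synonyms, and 20 lists had no member among the genes kept. Genes matched only by a shared name were taken out, among them a cinnamoyl-CoA reductase that shares a symbol with a clock gene. Named genes are the 20 brightest, the 12 lowest and 12 highest, the 5 at each end with 1 Col-0 value under the filter level, up to 4 of each list with 5 or more members, and all members of smaller lists. Other genes are named because a count of a few genes called for it. Alternatives covered normalization, filter, threshold, low values, probe sets, model terms and leaving out each array. Detection calls, sequences and promoter motifs were not used here.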

Additional observations from a re-analysis of the deposited data

Results flagged for a closer look

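In 6 genes the Col-0 difference and the mutant difference were both at least 2-fold as measured and opposite in sign, so the experiments differed one way in wild type and the other way in the mutants. With 1 array per line this contrast was not tested. AT1G15330 read 6.94, 6.16, 5.33 and 7.55 in Col-0, sfr6-3, Col-0 and sfr6-2, with differences of -1.61 in Col-0 and 1.39 in the mutants. AT1G19530 read 10.25, 5.71, 8.82 and 8.51, with -1.43 and 2.80, and AT1G04560 read 6.79, 5.82, 5.44 and 8.43, with -1.34 and 2.61. For AT1G19530 the sfr6-3 array was the low one, and for AT1G04560 the sfr6-2 array was the high one. AT5G14580 read 5.93, 7.41, 6.96 and 6.36, with 1.02 and -1.04, and AT3G10530 read 8.14, 9.66, 9.38 and 8.35, with 1.24 and -1.31. AT2G22590, of the UDP-glycosyltransferase family, read 7.02, 6.26, 8.73 and 4.96, with 1.71 and -1.30. In AT3G10530 all 4 values lay above the filter level of 6.46, and in the other 5 genes at least 1 value lay under it. With values raised to that level the Col-0 difference reached 2-fold in 3 of the 6 genes, AT1G19530, AT3G10530 and AT2G22590, and both differences did in AT1G19530 and AT3G10530 only.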

How the results depend on the processing

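The counts of genes at least 2-fold higher and lower in Col-0, and of those met by the same in the mutants, were 339, 404 and 298. They were 1647, 1869 and 1071 with no filter, 160, 257 and 185 with the filter at the 60th percentile, 104, 147 and 101 at 3-fold, and 990, 892 and 813 at 1.5-fold, where more genes were higher than lower. The limma counts of 311 higher and 461 lower became 128 and 281 with no filter, 138 and 271 at the 60th percentile, and 14 and 40 without the genotype term, and cyclic loess gave 193 higher. Leaving out each array, which also drops the genotype term, gave 0 to 46 higher and 0 to 90 lower. Without Col-0 of the sfr6-2 experiment limma called 0 either way, without the sfr6-2 array 0 higher and 1 lower, without Col-0 of the sfr6-3 experiment 7 and 7, and without the sfr6-3 array 46 and 90. List medians moved with no filter to 0.023 for auxin genes, -0.77 for mitochondrial genes, 0.85 for peroxidases, 0.63 for glutathione transferases and -0.69 for WRKY genes, so those of the auxin, glutathione transferase and WRKY genes changed sign. Quantile and cyclic loess normalization turned the medians of the reference genes (-0.059 and -0.11) and the jasmonate genes (-0.013 and -0.047) below 0 and moved that of the chloroplast genes to -0.13 and -0.17. With both Col-0 values at or above the level they were 0.60 for peroxidases and 1.36 for suberin genes, of which 2 were left. At the 60th percentile they were 1.36 for suberin genes, 0.28 for expansins and -0.31 for heat shock genes, and raised values gave 1.18 for suberin genes. The limma fit sets Col-0 against Col-0 and mutant against mutant across the experiments, and the mutants are different alleles. No further block could be fitted, since each group is 1 array and the labels carry no replicate numbers. The search of promoters for motifs was not run. With 1 array per group the number of arrays limits every value.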
